A study of Drosophila melanogaster with 4 samples.

Results

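Cul4, mahj, pic, Cka, Strip, Slmap, Fgop2, mts and Hsp83 are 9 Drosophila genes that encode subunits of the CRL4 ubiquitin ligase, of the STRIPAK and PP2A phosphatase complexes, and the chaperone Hsp90. They were taken by name, and every Dam-Pr-set7 summit from 2000 bp before to 2000 bp after the annotated span of each gene was collected (a stretch called the window of the gene). The 9 genes are among 13922 protein-coding genes on the chromosome arms, and their windows held 15 of the 7157 deposited summits. Genomic DNA from larvae was measured by targeted DamID, in which the methylase Dam, fused to a chromatin protein, marks the adenines of nearby GATC motifs. The Dam-Pr-set7 group (UAS-Dam-Pr-set7 with grh-Gal4, in the vector pUASTattB-LT3-NDam, 2 samples) carried Dam joined to the histone methyltransferase Pr-set7 (SETD8), and the Dam group (UAS-Dam with grh-Gal4, 2 samples) carried Dam without a partner. Larvae of both groups hatched at 25 °C and were then kept at 29 °C, and were taken at 24 h after hatching. The labels describe the driver as specific to neural stem cells (NSCs) and state 2 batches with 1 sample of each group, so that replicate and batch cannot be told apart.

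The values are summits of the 2 Dam-Pr-set7 samples, 2876 in replicate 1 and 4281 in replicate 2, with median heights of 42 and 37 fragments. The libraries of the Dam group were not analysed here, and whether they served as the control when the deposited summits were called is not given. Read depth is unknown, so heights are given with their percentile within their own list, where 100 is the highest. Summits do not measure expression, and the labelled cell type could not be checked in that way. Of 6 genes that mark neural stem cells (dpn, wor, ase, mira, grh and insc), 0 had summits of both replicates in their window, against 23.3% of all protein-coding genes. In replicate 2 alone, grh had 2 summits (the higher of 49 fragments) and insc had 1 (55 fragments). Of 3 genes that mark glia, neurons and muscle (repo, elav and Mhc), 2 did, with 166 and 186 fragments at elav and 18 and 17 at repo. The repo summits of the replicates lay 2994 bp apart.

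Newly hatched larvae hold neural stem cells in quiescence, from which feeding and insulin-like signals release them. CRL4 is a cullin-RING ligase. Its scaffold Cul4 binds the adaptor DDB1 (encoded by pic), which holds receptors such as Mahjong (encoded by mahj), and in flies this ligase is known to promote reactivation by acting against the Hippo kinase Warts. STRIPAK joins the PP2A catalytic subunit Microtubule star (encoded by mts) to the scaffold Cka and to Strip, Slmap and Fgop2. It is known in fly neural stem cells to restrain Hippo signalling and to support insulin signalling, while Hsp83, the fly Hsp90, associates with the insulin receptor.

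Summits of both replicates lay in the windows of Cul4, Cka, Strip, Slmap, Fgop2 and mts, and no summit of either replicate lay in those of mahj, pic and Hsp83 (3 of 9, against 60.1% of all protein-coding genes). The count with both was therefore 6 of 9, against the 23.3% of all protein-coding genes. In replicate 1 it was 6 of 9 (28.3% of all genes) and in replicate 2 it was 6 of 9 (34.9%), from the same 6 genes. In each of these 6 windows the replicates shared a position, taken as summits within 500 bp of each other, which was so in 21.3% of all genes. Of the 3247 genes with summits of both replicates in the window, 91.2% shared a position in this way. All 4 STRIPAK genes and mts were among the 6 genes with a shared position, against 1 of the 3 CRL4 genes and not Hsp83. The 9 genes were chosen with results of these data known, so these counts carry no test.

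**Figure D1:**
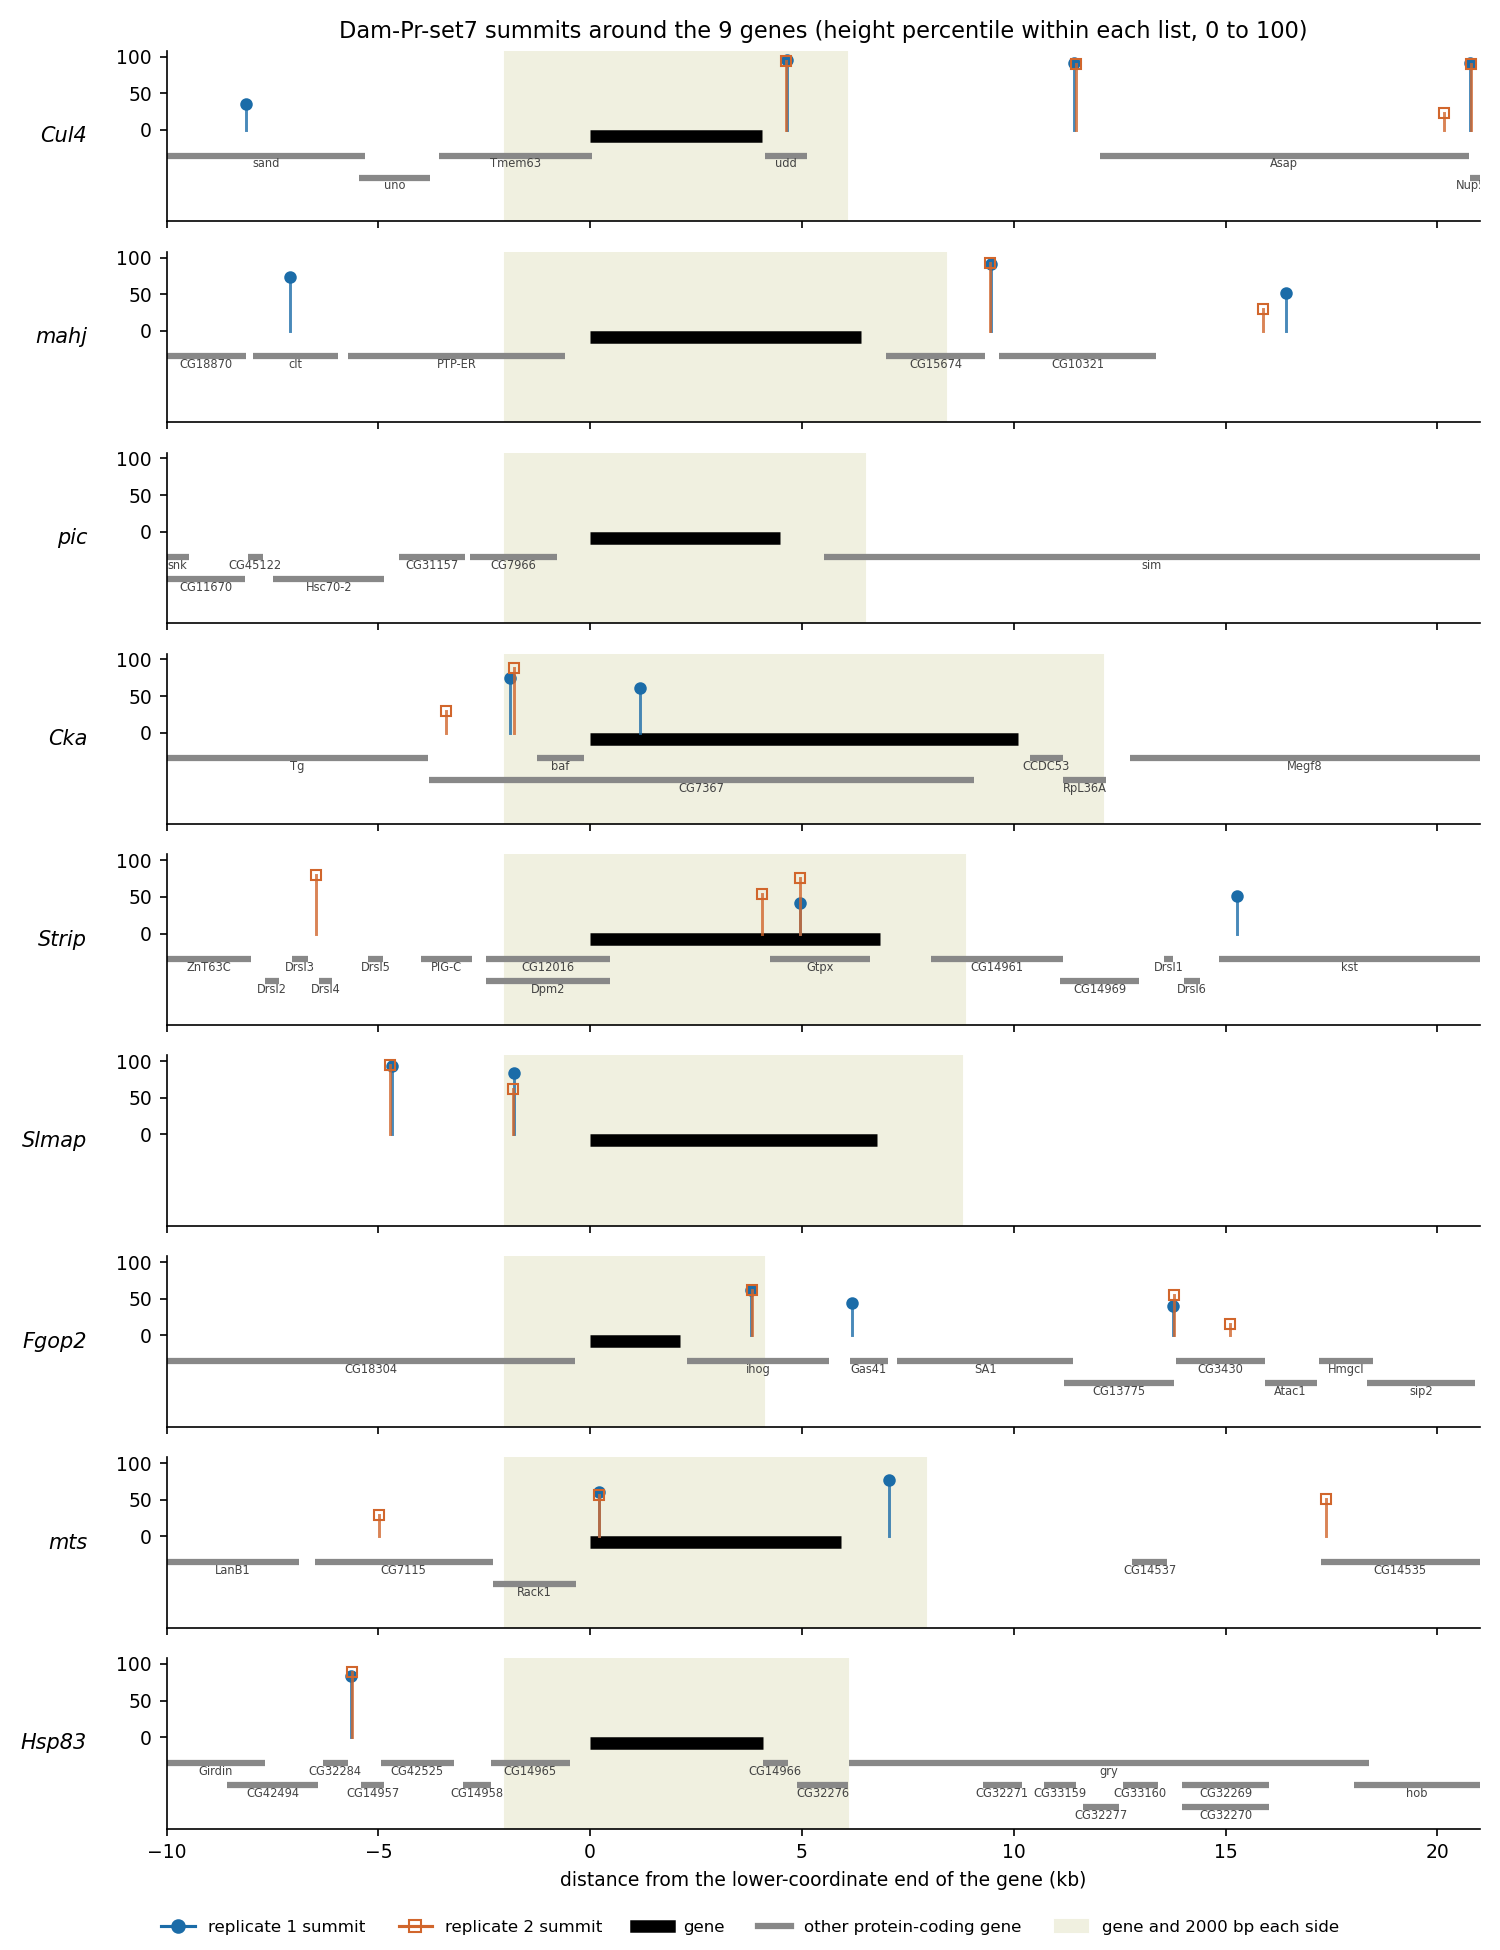
Summits around each of the 9 genes. The x axis is the distance from the lower-coordinate end of the gene in kb, the y axis the height percentile within the replicate's own list (0 to 100), with circles for replicate 1, squares for replicate 2, black bars for the gene, grey bars for other protein-coding genes and shading for the gene with 2000 bp on each side. The windows of mahj, pic and Hsp83 are empty, and in the other 6 a circle and a square stand at nearly the same position.

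Cul4, the ligase scaffold (2R, 8102260 to 8106318, dm6), had the highest summits within the windows of the 9 genes in both replicates. The summit of replicate 1 at 8106901 had 160 fragments (percentile 95.5), and that of replicate 2 at 8106872 had 128 fragments (percentile 94.2). They were 29 bp apart and lay 583 and 554 bp beyond the higher-coordinate end of Cul4. Both fell inside its neighbour udd (8106385 to 8107373), a gene of ribosomal RNA transcription that begins 66 bp past Cul4. The summits were 472 and 487 bp from the nearest end of udd, closer than to Cul4 itself. At the other end Cul4 overlaps Tmem63 by 47 bp, and no summit was called there. A further pair of 128 and 105 fragments, 38 bp apart, stood outside the window, 7371 and 7409 bp from Cul4, with Asap as its nearest gene.

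The other CRL4 subunits had no summit in their windows. At mahj, the substrate receptor (2R, 21625030 to 21631422), the nearest summits of replicates 1 and 2 lay 3073 and 3056 bp away. These were high, with 128 fragments at 21634495 and 116 at 21634478 (percentiles 91.8 and 92.2), and 17 bp apart. They stood in the gap between CG15674 and CG10321, 133 and 116 bp from the end of CG15674. Around pic, the adaptor gene (3R, 13052245 to 13056725), no summit of either replicate was found within 10000 bp, as for 30.6% of all genes. Its nearest summits were 34844 and 31681 bp away, and 16.4% and 11.2% of genes had a more distant nearest summit in replicates 1 and 2. Among the 9 genes pic was therefore the farthest from any summit in both replicates. Where no summit was called, binding too weak to detect in these libraries and no binding cannot be told apart.

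Strip, Cka, Slmap and Fgop2 each had a shared position in the window, inside the gene at Strip and outside it at the other 3. At Strip, the core STRIPAK-interacting subunit (3L, 3322025 to 3328871), the position lay inside the gene. Replicate 1 had 36 fragments at 3326988 and replicate 2 had 66 at 3326989, 1 bp apart and 1883 and 1882 bp from the nearest end of Strip. Gtpx, a peroxidase gene nested within Strip (3326265 to 3328626), also contains both, so these summits cannot be assigned to one of the overlapping genes. A second summit of replicate 2 inside Strip, at 3326086 with 40 fragments, was 902 bp from the nearest summit of replicate 1. It lay outside Gtpx by 179 bp.

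At Cka, the striatin scaffold of the complex (2L, 8030721 to 8040826), the shared position was outside the gene, close to the edge of the window. It had 72 fragments at 8028818 in replicate 1 and 97 at 8028922 in replicate 2, which were 1903 and 1799 bp from Cka and 104 bp apart. Both lay inside CG7367, which overlaps Cka over 9068 bp, and 644 and 540 bp from baf, the barrier-to-autointegration factor gene that stands between the summits and Cka. Replicate 1 had a further summit inside Cka at 8031906 with 53 fragments (percentile 60.9), 1185 bp from the end of the gene. The nearest summit of replicate 2 was 2984 bp from it. Inside Cka itself the replicates therefore shared no position.

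Slmap, which encodes a tail-anchored membrane subunit (2L, 22579072 to 22585843), had no other protein-coding gene within 2000 bp. Its shared position had 96 fragments at 22577284 in replicate 1 and 47 at 22577243 in replicate 2, and lay 1788 and 1829 bp beyond its lower-coordinate end. The percentiles were 84.3 and 61.5, a wider gap in rank between the lists than at Cul4 or Fgop2. A higher pair stood 4680 and 4718 bp away, outside the window, with 141 and 139 fragments (percentiles 93.9 and 95.4). That outer pair was alike in rank in the replicates.

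At Fgop2, a small STRIPAK subunit gene (2L, 6943178 to 6945289), replicate 1 had 54 fragments at 6946964 and replicate 2 had 47 at 6946995. These were 31 bp apart, with percentiles of 61.8 and 61.5. They lay 1675 and 1706 bp from Fgop2 and inside ihog, a Hedgehog co-receptor gene that begins 174 bp beyond Fgop2. Neither replicate had a summit inside Fgop2.

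The catalytic subunit gene mts (2L, 7827650 to 7833576) had a shared position just inside its lower-coordinate end. Replicate 1 had 52 fragments at 7827853 and replicate 2 had 42 at 7827855, which were 203 and 205 bp inside the gene and 2 bp apart. Their percentiles of 59.9 and 56.3 placed them near the middle of the lists. Rack1, a ribosomal scaffold protein gene, ends 334 bp before mts, and the summits were 538 and 540 bp from it. The highest summit of replicate 1 in the window, at 7834697 with 77 fragments (percentile 77.5), lay 1121 bp beyond the other end of mts. The nearest summit of replicate 2 was 6842 bp from that one, so it was not shared.

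Hsp83, the cytosolic Hsp90 gene (3L, 3192969 to 3197059), had its nearest summits 5657 and 5625 bp away. Replicate 1 had 92 fragments at 3187312 and replicate 2 had 104 at 3187344. They were 32 bp apart and nearest to CG32284, at 67 and 99 bp. Between them and Hsp83 lie CG14957, CG42525, CG14958 and CG14965. A nearest summit farther away than that of Hsp83 was found for 57.4% of genes in replicate 1 and 48.8% in replicate 2.

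**Figure D2:**
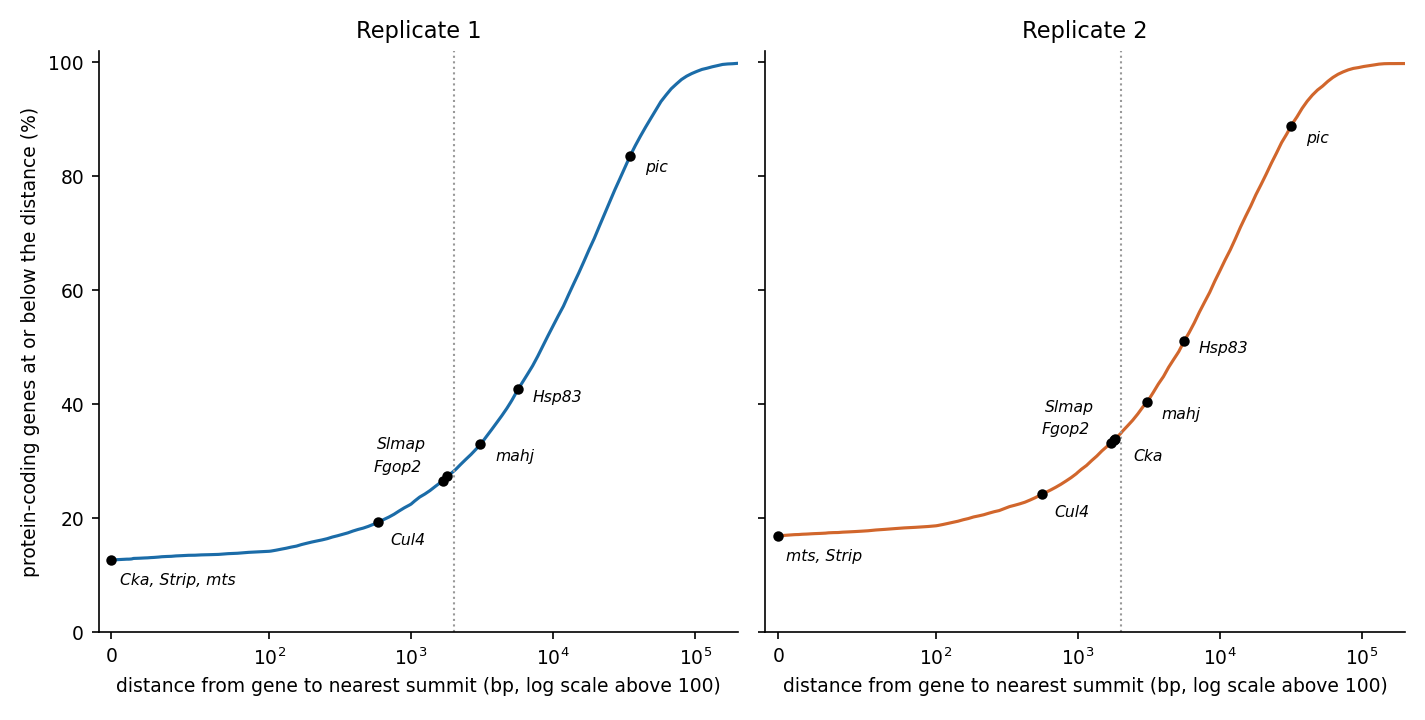
Distance from each protein-coding gene to the nearest summit, one panel per replicate. The x axis is the distance in bp (0 inside the gene, log scale above 100), the y axis the cumulative percentage of 13922 genes, the dots the 9 genes and the dotted line 2000 bp. Strip and mts stand at 0 in both panels, Cka in replicate 1 only, and pic lies at 34844 and 31681 bp.

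The edge of the window fell between 2 sets of values. Just inside it were the shared positions of Fgop2, Slmap and Cka, at 1675 to 1903 bp in replicate 1 and 1706 to 1829 bp in replicate 2. Just outside it was mahj, at 3073 and 3056 bp. With no flank, that is, summits inside the gene only, Strip and mts remained (2 of 9, against 9.85% of all genes), and Cul4 joined them within 1000 bp (3 of 9, against 18.2%). Within 5000 bp, a distance added after the data were seen, mahj made it 7 of 9, against 34.2%.

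Gene length also moved with these counts. The median length of the 9 genes was 5927 bp, against 2163 bp for all protein-coding genes. Genes were cut by length into 5 groups of equal number. In the longest group, which holds Cka, Strip and Slmap, 38.3% had summits of both replicates in the window. The next group (2833 to 6472 bp) holds Cul4, mahj, pic, mts and Hsp83, with 25.5%, and the middle group holds Fgop2, with 22.4%. In these groups the counts of the 9 genes were 3 of 3, 2 of 5 and 1 of 1. The part of gene length in the 6 of 9 was not tested.

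**Figure D3:**
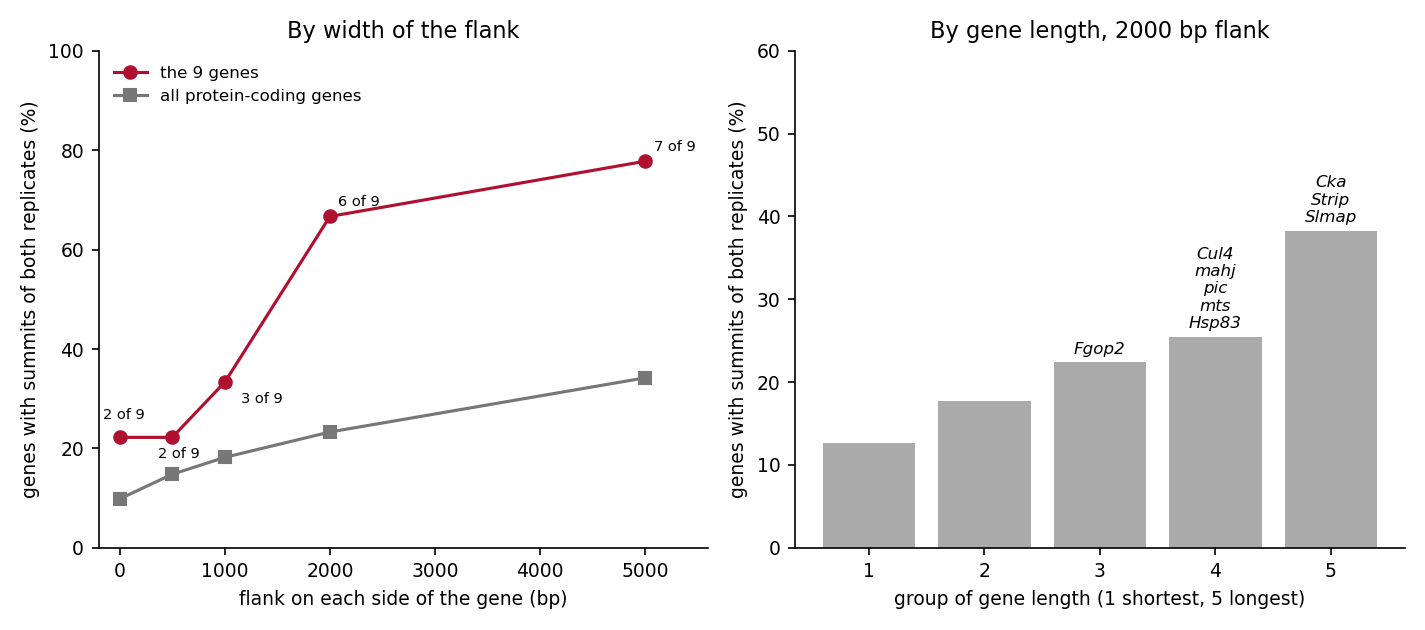
Share of genes with summits of both replicates (y axes, %). The left panel plots it against the flank added on each side of the gene (x axis, bp) for the 9 genes (circles, with counts) and all protein-coding genes (squares). The right panel plots all protein-coding genes with the 2000 bp flank by length group (x axis, 1 shortest to 5 longest), with the names of the 9 genes above their group, and the share reaches 38.3% in the longest.

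Neighbouring genes shared most of these summits. With every summit given only to the protein-coding gene nearest to it, or to each gene that contains it, Strip, Slmap and mts kept summits of both replicates (3 of 9, against 12.5% of all genes). Cka kept the summit of replicate 1 inside it, which CG7367 also contains. The summits of Cul4 went to udd and those of Fgop2 to ihog. Slmap and mts were then the 2 genes that kept a shared position not contained in another protein-coding gene. With every kind of gene in the table as a possible neighbour, the count by nearest gene was again 3, for Strip, Slmap and mts.

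At the closest pair of summits in each window the replicates differed little in position, and in height they differed more at some genes than at others. The further summits at Cka and mts in replicate 1 and at Strip in replicate 2 had no such partner. Their nearest summits of the other replicate were 2984, 6842 and 902 bp away. The closest summits of the replicates were a median of 30 bp apart in the 6 windows, against 22 bp over the 3247 genes with summits of both. Strip (1 bp) and mts (2 bp) were among the closest of these, since 3.48% and 6.53% of the 3247 genes had a distance as small. Cka, at 104 bp, was among the widest, with 86.1% of the 3247 genes at or below its distance. Positions in DamID are set by where GATC motifs lie, which was not examined here.

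Height ratios of the shared summits, replicate 2 over replicate 1, were 1.83 at Strip and 1.35 at Cka, and below 1 at Fgop2 (0.87), mts (0.808), Cul4 (0.8) and Slmap (0.49). Over all 1972 pairs of mutually nearest summits within 500 bp the median ratio was 1.14, and the 5th and 95th percentiles were 0.671 and 1.90. These ratios contain the unknown difference in depth. Slmap fell below that range, with 1.42% of pairs at or below its ratio, although the outer pair near it had a ratio of 0.986. Strip was near the other end, with 6.69% of pairs at or above its ratio. In percentile replicate 2 was higher by 33.8 points at Strip, and replicate 1 was higher by 22.8 at Slmap. The median absolute difference over all pairs was 11.2 points, which carries no direction. Ranks ran higher in replicate 2 at the 3247 genes with summits of both. Their highest summit had a median percentile of 62.6 in replicate 1 and 74.8 in replicate 2. The difference at Strip had that direction, and the one at Slmap the opposite. Replicate 1 was higher by 1.22 at Cul4 and by 0.364 at Fgop2.

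**Figure D4:**
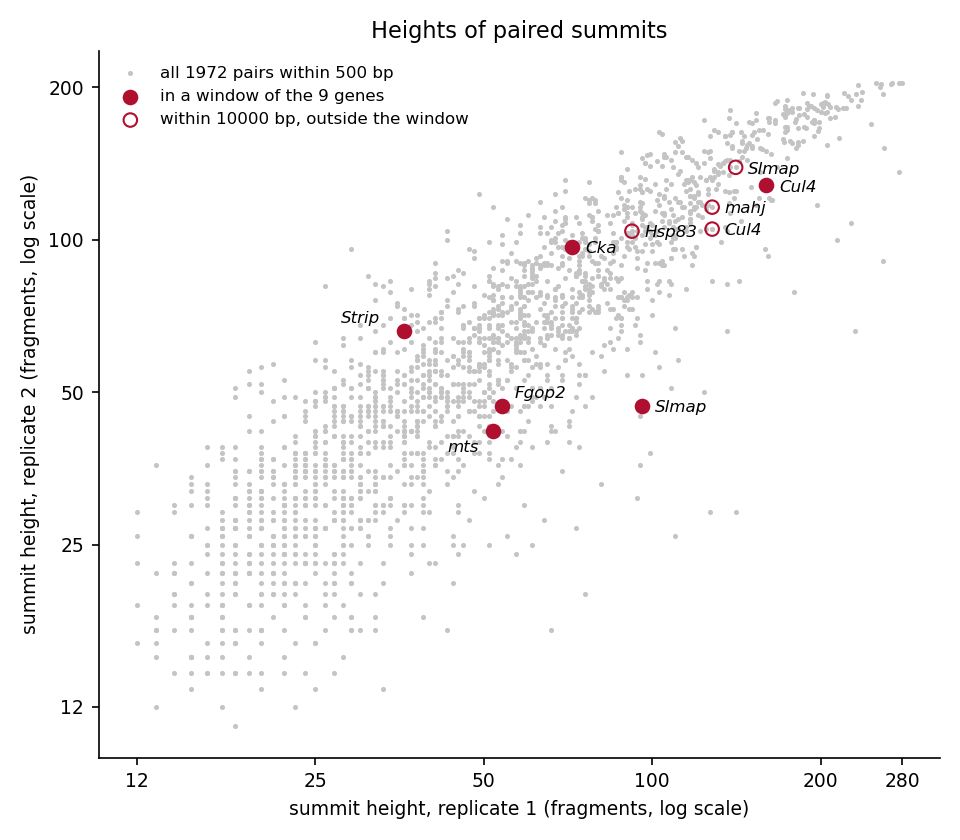
Heights of paired summits in fragments, replicate 1 on the x axis and replicate 2 on the y axis (log scales). Grey points are all 1972 pairs within 500 bp, filled circles the pairs in the windows of the 9 genes, and open circles pairs outside the window but within 10000 bp of a gene. Cul4 is the highest filled circle, and Slmap (96 and 47 fragments) lies at the lower edge of the cloud.

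Ordered by the highest summit in the window, replicate 1 gave Cul4 (percentile 95.5), Slmap (84.3), mts (77.5), Cka (74.6), Fgop2 (61.8) and Strip (42.1). Replicate 2 gave Cul4 (94.2), Cka (87.6), Strip (75.9), Slmap and Fgop2 (61.5 each) and mts (56.3). Cul4 came first in both, and the order of the other 5 changed between replicates. The 6 genes had a median percentile of 76.1 in replicate 1 and 68.7 in replicate 2, against 62.6 and 74.8 over the 3247 genes with summits of both replicates. Of the 6, Cul4, Slmap, mts and Cka stood above the median of those genes in replicate 1, and Cul4, Cka and Strip in replicate 2. The value of mts in replicate 1 came from the summit beyond its other end, which replicate 2 did not share. At its shared position mts had percentiles of 59.9 and 56.3, below the median in both replicates. Among the genes of the pathway lists described next, the one closest in the 2 percentiles was Pi3K92E for Cul4 (4.54 percentile points away over 2 samples), p23 for Cka (5.07), InR for Strip (8.90) and Akt for Fgop2 (15.8). For Slmap and mts it was each other (8.49), with the unshared summit of mts taken for replicate 1.

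The wider pathways were counted over 5 lists of 56 genes, 9 of them the genes above. Summits of both replicates lay in 25 of the 56 windows (44.6%) and in 19 of the 47 other genes (40.4%), against 23.3% of all protein-coding genes. The lists were written with earlier results of these data known. The median length of the 47 genes was 2476 bp, and the lists differed in length. With the 9 genes included, the median was 2167 bp for CRL4, 4053 bp for STRIPAK and 4022 bp for PP2A. It was 2472 bp for Hsp90 and 4649 bp for the Hippo and insulin effectors. The part of gene length in these counts was not tested.

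Of the CRL4 list, 6 of 19 genes had summits of both replicates (31.6%, against 23.3% of all protein-coding genes). After Cul4 the highest were at Cand1, the cullin exchange factor (92 and 79 fragments in replicates 1 and 2), Nedd8, the ubiquitin-like modifier of cullins (58 and 90), and CSN6, a subunit of the COP9 signalosome that removes Nedd8 (59 and 77). The RING subunit genes differed, with 36 and 44 fragments at Roc1b and no summit in the window of Roc1a. At l(2)dtl, whose human counterpart CDT2 is the CRL4 receptor for the SETD8 protein itself, replicate 1 had no summit in the window and replicate 2 had 1 of 17 fragments (percentile 10.9). By nearest gene, 1 of the 19 kept summits of both replicates, which was CSN6, against 12.5% of all genes. With no flank the count was 0, against 9.85% of all genes.

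Of the STRIPAK list, 7 of 9 genes had summits of both replicates, against 23.3% of all genes, and 6 had a shared position, against 21.3%. Besides the 5 genes above these were Pp2A-29B, the structural A subunit of PP2A (77 and 78 fragments, 45 bp apart), and Ccm3, an adaptor for germinal centre kinases. The Ccm3 summits of 27 and 33 fragments were 1801 bp apart and therefore not shared. Mob4 and the kinase gene GckIII had no summit of either replicate in their windows. By nearest gene 4 of the 9 kept summits of both replicates, against 12.5% of all genes. With flanks of 0, 500 and 1000 bp the count was 3 each, for Strip, mts and Pp2A-29B. The shares of all genes with these flanks were 9.85%, 14.8% and 18.2%. On the PP2A list, which also holds mts and Pp2A-29B, the count was 5 of 10 with each of these flanks.

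Of the PP2A list, 6 of 10 genes had summits of both replicates (60%, against 23.3% of all genes). Each of them had a shared position, as did 91.2% of all genes with summits of both replicates. The highest summits of this list were at wrd, a B' regulatory subunit (90 and 111 fragments, 3 bp apart), Pp2A-29B, and Ptpa, the phosphatase activator (60 and 91 fragments, 4 bp apart). The other regulatory subunits tws (26 and 50 fragments) and wdb (26 and 42) had low summits in replicate 1, at percentile 24.9 each. By nearest gene 5 of the 10 kept summits of both replicates, against 12.5% of all genes. These were mts, Pp2A-29B, tws, wrd and Ptpa.

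Of the Hsp90 list, 4 of 10 genes had summits of both replicates (40%, against 23.3% of all genes) although Hsp83 had none. They were the immunophilin gene Fkbp59 (108 and 144 fragments), the chaperone gene Hsc70-4 (90 and 138), the mitochondrial Hsp90 gene Trap1 (98 and 83) and the co-chaperone gene p23 (82 and 92). Of the effectors in the Hippo and insulin pathways, 4 of 10 had summits of both replicates (40%, against the same 23.3%). These were sav, the Hippo scaffold (205 and 179 fragments), Pi3K92E, the PI3-kinase catalytic subunit (126 and 149), InR, the insulin receptor (43 and 62), and the kinase gene Akt (39 and 46). The replicates shared a position within 500 bp at all 8 of these genes, as at 91.2% of all genes with summits of both replicates. The closest summits were 381 bp apart at InR and 245 bp at Akt, against a median of 22 bp over all genes with both. InR had 4 summits of replicate 2 in its window, so its 62 fragments need not belong to the pair. By nearest gene 3 of the 10 genes on the Hsp90 list and 2 of the 10 effectors kept summits of both replicates. The share of all genes was 12.5%. Fkbp59, sav and Akt did not keep them. The summits of replicates 1 and 2 lay 250 and 239 bp outside sav, and 878 and 1123 bp outside Akt. That of replicate 1 lay 1347 bp outside Fkbp59.

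**Figure D5:**
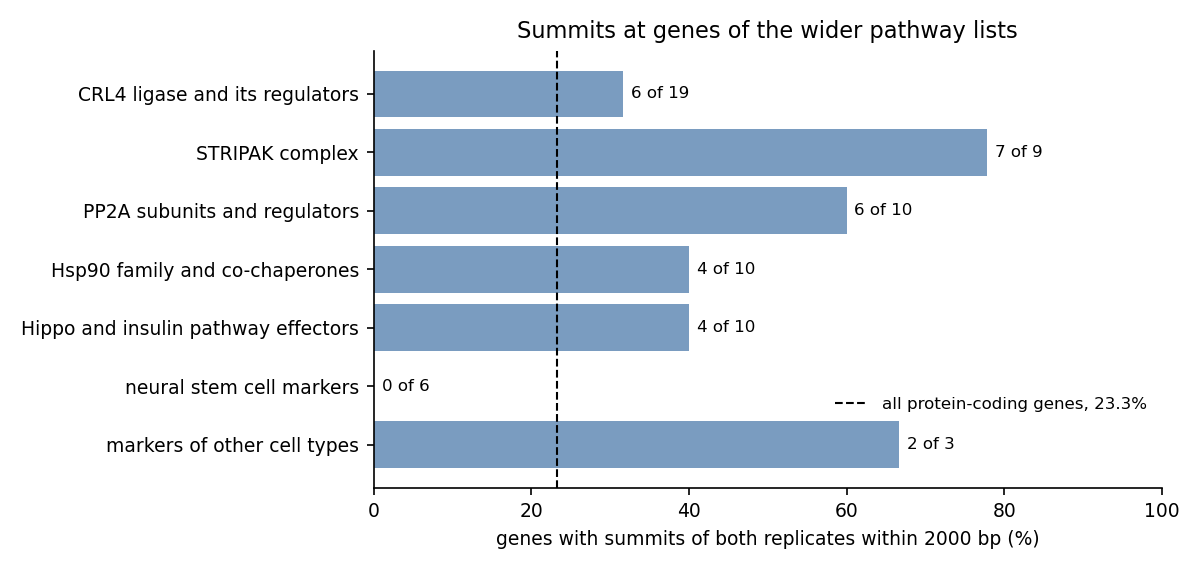
Share of genes with summits of both replicates in the window (x axis, %) for the 5 pathway lists and the 2 lists of cell type markers (rows, with counts). The dashed line is the share of all protein-coding genes, 23.3%, and with this flank of 2000 bp the STRIPAK list, with 7 of 9, has the longest bar.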

How the data were processed

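Summits of the 2 Dam-Pr-set7 samples were used. The submitters' processing notes name build dm6 with MACS 1.4.2, Bowtie2 2.2.6 and bcl2fastq 2.19.0.316. Use of the Dam libraries as control, cutoffs and duplicate filters are not given in the sources used here. Each file lists summits of 1 bp with the deposited signal, taken from its values and the tool to be the pileup height in fragments, not scaled to depth, called per sample. Replicate numbers follow the order of deposit, and nothing states that they came from separate animals. Gene spans came from RefSeq (Release 6 plus ISO1 MT). Gene strand and sequence were not used here, so starts were not told from 3' ends.

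Windows, nearest genes, pairs within 500 bp and percentiles (ties averaged over the whole file) were computed with Python 3.11.15 (matplotlib 3.10.9, SciPy 1.17.1, pandas 2.3.3, numpy 2.4.6), and checked on simulated summits. No test was run. Of 66 listed names 65 matched, and Ahsa1 did not. Hop was read as Stip1. Genes and lists were chosen with earlier results of these data known. Named are the 9 genes, their nearest neighbours, up to 4 genes per list with the highest mean percentile among those with a shared position, and the most similar list gene. The neighbours of outer summits, Roc1a, Roc1b, l(2)dtl, Ccm3, Mob4, GckIII, tws, wdb, Tmem63 and repo were added after their values were seen. Alternatives were other flanks, pair distances, summits above the median height, nearest genes and single replicates.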

Additional observations from a re-analysis of the deposited data

How the results depend on the processing

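The count of the 9 genes with summits of both replicates, 6, was 5 with summits above the median height of their list, 6 in either replicate alone and 7 with a 5000 bp flank. It was 2 with no flank, 2 with 500 bp, 3 with 1000 bp and 3 by nearest gene, and the count with a shared position took the same 4 values. For replicate 1 it was 3 with no flank or 500 bp, and for replicate 2 it was 2 with no flank or 500 bp and 3 with 1000 bp or by nearest gene. Shorter flanks hold fewer summits by construction. The share of all genes, 23.3%, was 9.85%, 14.8%, 18.2% and 34.2% with flanks of 0, 500, 1000 and 5000 bp, 14% above the median height, 12.5% by nearest gene and 28.3 to 34.9% with 1 replicate left out. Of the 56 list genes, 25 became 11, 13 and 16 with flanks of 0, 500 and 1000 bp and 13 by nearest gene. The shared count was 6 within 200 and 1000 bp. No paired analysis was made, since the Dam samples, with which each batch pairs a Dam-Pr-set7 sample, were not analysed here. No test was run. Depth is unknown, which limits what a missing summit shows.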
